A study of Mus musculus with 5 samples.

Results

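The 10 genes described here encode proteins of tracheal cartilage or regulate them, and were taken by symbol from a deposited expression table of 19699 gene entries. They are the fibrillar collagen genes Col2a1, Col11a1 and Col11a2, the type IX collagen genes Col9a1, Col9a2 and Col9a3, the matrix genes Acan and Matn1, and the transcription factor genes Sox5 and Sox6. All 10 were in the table. RNA was sequenced from the main airway, dissected with trachea and lung, of C57 mouse embryos at embryonic stage E13.5. The 2 mutant libraries came from embryos with Prmt5, an arginine methyltransferase gene, deleted in lung epithelial cells, and the design text writes this genotype with Shh beside Prmt5. The 3 control libraries came from littermates and carry the genotype label WT. The genotype label calls the mutants a knockdown while the protocol describes a knockout, and neither names the floxed allele or the Cre driver. The deletion was aimed at the epithelium, whereas cartilage forms in the mesenchyme around it.

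Cartilage of the airway arises when mesenchymal cells on the ventral side of the trachea condense and become chondrocytes, which then lay down the rings that hold the airway open. SOX9, helped by the related proteins SOX5 and SOX6, switches on the genes of the cartilage matrix. Type II collagen forms the main fibrils, type XI collagen lies within them and sets their width, and type IX collagen coats their surface. The large proteoglycan aggrecan fills the space between fibrils and holds water, and matrilins link the parts of the matrix. SHH made by the epithelium is known to be needed for tracheal cartilage in the mouse.

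Expression was given as FPKM, a read count divided by gene length and by the size of the library. The libraries rested on 15652503 to 18682463 reads, as recovered from the steps between FPKM values. Prmt5 stood at 23.7 and 20.1 FPKM in mutant libraries, against 28.7, 26.4 and 25.8 FPKM in control libraries. Both mutants were below every control, but its log2 change of -0.29 did not pass (adjusted p = 0.234 with limma), and since the deletion was aimed at the epithelium alone, the level in whole airway checks the labels in part only. Xist, which is transcribed from the inactive X chromosome, stood at 0.0673 and 0.289 FPKM in mutant libraries, against 57.3 to 115 FPKM in the controls, while 4 Y-linked genes summed to 31.5 and 27.1 FPKM in the mutants and to 4.49 to 23.0 FPKM in the controls. The control libraries therefore held RNA of both sexes, and sex cannot be told apart from genotype in full. Nothing in the labels says how many embryos made up a library, so the p-values given here measure the spread between these libraries.

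The start sites of the genes whose products assemble into shared trimers are shown first, since the values below compare those partners. RefSeq (GRCm38.p6) gave windows of 250 bases before to 50 bases after a start site for 8 of the 10 genes, and Col2a1 and Col9a3 were without one. The windows printed below lie on the plus strand at chr1:24177360-24177659 for Col9a1, chr4:121039316-121039615 for Col9a2, chr3:114030290-114030589 for Col11a1 and chr17:34038888-34039187 for Col11a2. Capitals mark GGGCGG, the core of the SP1 site, and TATAAA, the letters of the TATA box, on either strand, and none of the marked matches overlap.
Col9a1: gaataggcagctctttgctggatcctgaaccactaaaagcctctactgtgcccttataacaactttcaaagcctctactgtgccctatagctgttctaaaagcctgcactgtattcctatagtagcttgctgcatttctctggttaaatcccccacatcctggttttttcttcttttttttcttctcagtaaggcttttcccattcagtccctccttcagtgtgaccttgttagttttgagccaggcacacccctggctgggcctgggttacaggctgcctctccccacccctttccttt
Col9a2: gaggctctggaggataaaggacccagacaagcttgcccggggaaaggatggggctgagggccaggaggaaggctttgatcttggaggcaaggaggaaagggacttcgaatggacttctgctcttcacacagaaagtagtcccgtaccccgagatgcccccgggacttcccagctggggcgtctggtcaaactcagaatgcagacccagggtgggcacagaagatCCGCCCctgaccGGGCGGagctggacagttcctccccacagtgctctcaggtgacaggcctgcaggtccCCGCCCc
Col11a1: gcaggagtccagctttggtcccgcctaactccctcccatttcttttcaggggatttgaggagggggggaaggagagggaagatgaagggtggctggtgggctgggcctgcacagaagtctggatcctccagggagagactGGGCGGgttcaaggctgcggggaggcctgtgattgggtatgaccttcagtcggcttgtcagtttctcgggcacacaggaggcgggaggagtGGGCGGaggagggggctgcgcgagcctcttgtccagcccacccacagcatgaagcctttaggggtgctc
Col11a2: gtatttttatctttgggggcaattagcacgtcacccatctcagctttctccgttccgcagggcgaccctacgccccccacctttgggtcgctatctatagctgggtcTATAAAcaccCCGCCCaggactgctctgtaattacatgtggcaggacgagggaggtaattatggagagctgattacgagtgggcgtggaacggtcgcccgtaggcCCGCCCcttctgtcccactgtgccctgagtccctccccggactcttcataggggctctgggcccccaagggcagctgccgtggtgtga
The Col9a2 window held 3 SP1 cores, the Col11a1 window 2, and the Col11a2 window 2 and a TATA box, while the Col9a1 window held none of these letters. Over the 7 windows of Col9a1, Col9a2, Col11a1, Col11a2, Acan and Matn1, 5 held the SP1 core, which was in 35.7% of all 32851 windows of this length. Col9a1 has another RefSeq start site, and its window there also held none of the motifs searched. The SOX cores ACAAAG and ACAATG were searched on both strands and counted together where either was present. They were in 0 of these 7 windows and in 6 of the 7 windows of Sox5 and Sox6, against 28.6% of all windows. Of the windows of Sox5 and Sox6, 1 was of Sox5 and the rest were start sites of Sox6 alone. Their GC content was 36.7% to 63.3%, against 47.3% to 74.0% in the windows of the collagen and matrix genes. The part of GC content in these matches was not tested. The known SOX9 sites of cartilage genes lie mostly in enhancers away from the start, which these windows do not cover.

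Of the 6 collagen genes of cartilage, 4 fell in the mutants, to between 26.8% and 48.4% of the control mean, and the factor genes Sox5 and Sox6 were not shown to change. Genes with at least 1 FPKM in at least 2 libraries were tested with limma on log2(FPKM + 1), which kept 12838 genes and 8 of the 10 cartilage genes. Each of the 8 reached 1 FPKM in all 3 controls and in at least 1 mutant, and Acan and Matn1 did not pass the filter. Of the 8 tested, 4 were lower at an adjusted p under 0.05 and 0 were higher, while 1.37% of all genes tested were lower and 0.989% higher. The 4 that fell were Col2a1, Col9a1, Col9a3 and Col11a1. The median log2 change of the 8 genes was -0.92, beside -0.06 over all genes tested. All 8 log2 changes were below 0, as were 61.1% of all genes tested. Both mutants lay below all 3 controls for 7 of the 8 genes, which was so for 24.4% of all genes tested. Voom on the recovered reads also called 4 of the 8 lower, against 1.71% of all genes, while with no filter 0 of the 10 genes passed, against 0.147% of 19699 entries lower. Without that filter 6 of the 10 had an unadjusted p under 0.05. Leaving out mutant replicate 1 left 1 of the 4 calls, and leaving out mutant replicate 2 left 0. The tissue was sequenced in bulk, so fewer cartilage cells and less RNA per cell cannot be told apart.

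**Figure D1:**
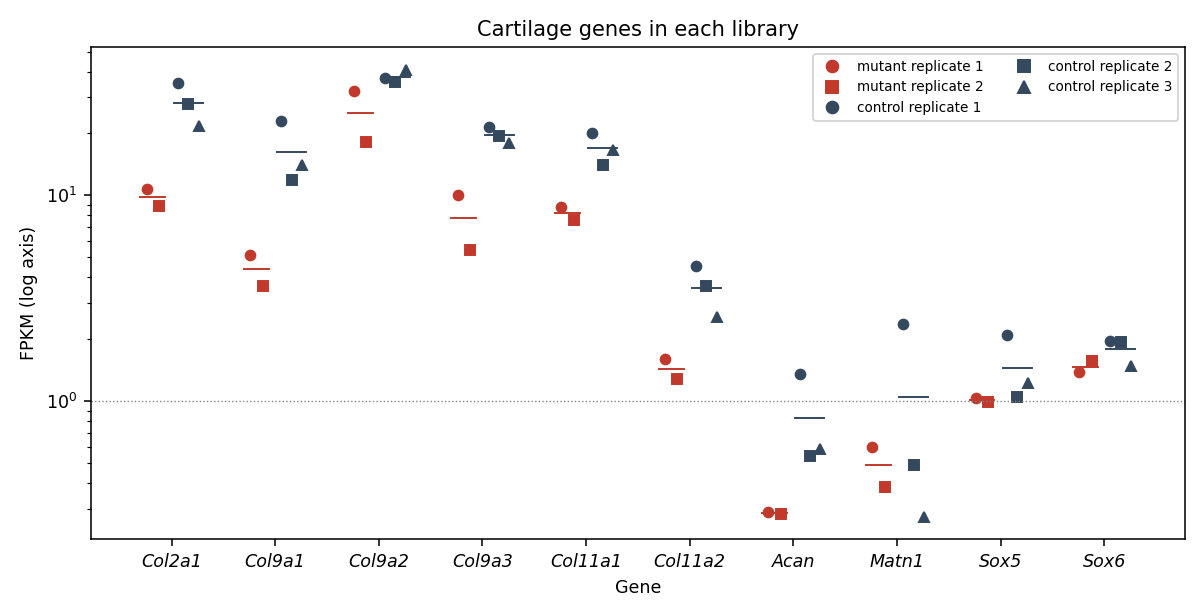
FPKM of the 10 cartilage genes on a log axis, with 1 point per library, mutants in red at the left of each gene and controls in blue at the right, and short lines at the group means. The dotted line is 1 FPKM. The 6 collagen genes, Acan and, by a narrow margin, Sox5 have both mutants below all 3 controls, while Matn1 and Sox6 overlap.

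Col2a1 (chromosome 15, 97975602 to 98004695, GRCm38, minus strand) encodes the chain of type II collagen, the main fibril of cartilage. It stood at 10.7 and 8.86 FPKM in mutant libraries, from 1013 and 832 reads, against 35.0, 27.8 and 21.7 FPKM in control libraries, from 3929, 2720 and 2370 reads. The groups did not overlap, and the lowest control was above the higher mutant by more than the distance between the mutants. The mean was 9.79 ± 1.31 FPKM (SD, n = 2) in mutants and 28.2 ± 6.69 FPKM (SD, n = 3) in controls, 65.3% lower in mutants. The log2 change was -1.42 (SE 0.20, adjusted p = 0.0178 with limma), and ranked from the most negative change Col2a1 was number 81 of 12838 genes. The summed Y-linked FPKM was higher in both mutants than in every control, so a fit with it cannot separate sex from genotype. With that sum as a covariate, Col9a1, Col9a3 and Col11a1 were at an adjusted p of 0.0585, 0.0759 and 0.115 with limma. Col2a1 was the 1 cartilage gene that kept its call there (log2 change -1.89, adjusted p = 0.0231 with limma). It lost the call without mutant replicate 1 (adjusted p = 0.101) and without mutant replicate 2 (adjusted p = 0.178), where the lone mutant is assumed to vary like the controls.

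Col11a1 (chromosome 3, 114030540 to 114220718, plus strand) and Col11a2 (chromosome 17, 34039437 to 34066685, plus strand) encode 2 chains of type XI collagen, and a product of Col2a1 supplies the remaining chain of that trimer. Col11a1 stood at 8.83 and 7.59 FPKM in mutant libraries, against 20.2, 14.1 and 16.6 FPKM in control libraries. Its groups stood well apart, with 1771 and 1512 reads in mutants and 2928 to 4804 reads in controls. The log2 change of Col11a1 was -0.95 (SE 0.16, adjusted p = 0.0333 with limma). Col11a2 stood at 1.60 and 1.28 FPKM in mutant libraries, against 4.54, 3.62 and 2.56 FPKM in control libraries. Its groups did not overlap either, but its controls spread over a wider range relative to their mean. The log2 change of Col11a2 was -0.89 (SE 0.21) and did not pass (adjusted p = 0.0757 with limma). Both calls changed when control replicate 3 was left out: Col11a2 then passed (adjusted p = 0.0412 with limma) and Col11a1 did not (adjusted p = 0.0547). Without mutant replicate 1 or 2, Col11a1 was at an adjusted p of 0.123 or 0.258.

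The 3 genes of type IX collagen, whose chains join into 1 molecule on the fibril surface, had log2 changes of -1.65 for Col9a1, -1.29 for Col9a3 and -0.62 for Col9a2. Col9a1 (chromosome 1, 24177610 to 24252684, plus strand) stood at 5.12 and 3.62 FPKM in mutant libraries, against 23.0, 11.8 and 14.0 FPKM in control libraries. Both mutants were far below the controls, and control replicate 1 stood above the other 2. Its mean was 73.2% lower in mutants, the largest percentage drop among the 10 genes (log2 change -1.65, SE 0.26, adjusted p = 0.0293 with limma). Col9a3 (chromosome 2, 180597790 to 180622189, plus strand) stood at 10.1 and 5.41 FPKM in mutant libraries, against 21.5, 19.4 and 17.9 FPKM in control libraries. The mutants differed from each other more than the controls did, and both were lower than every control. The log2 change of Col9a3 was -1.29 (SE 0.22, adjusted p = 0.0353 with limma). Of its exon bases 6.07% lie under exons of Tcfl5 on the opposite strand, and whether reads were assigned by strand is not given in the sources used here.

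Col9a2 (chromosome 4, 121039385 to 121055322, plus strand), which supplies the third kind of chain, stood at 32.3 and 18.1 FPKM in mutant libraries, against 37.0, 35.6 and 40.8 FPKM in control libraries. Mutant replicate 1 was close under the controls and mutant replicate 2 was far below them. The log2 change was -0.62 (SE 0.22) and did not pass (adjusted p = 0.186 with limma). Without mutant replicate 2 it was -0.22, and without mutant replicate 1 it was -1.02. The calls of the other type IX genes also rested on single libraries. Without mutant replicate 1 or 2, Col9a1 was at an adjusted p of 0.114 or 0.246. Col9a3 lost its call without mutant replicate 2 (adjusted p = 0.137), control replicate 1 (0.0587) or control replicate 2 (0.0646), and was the 1 cartilage gene that kept it without mutant replicate 1 (0.0452).

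**Figure D2:**
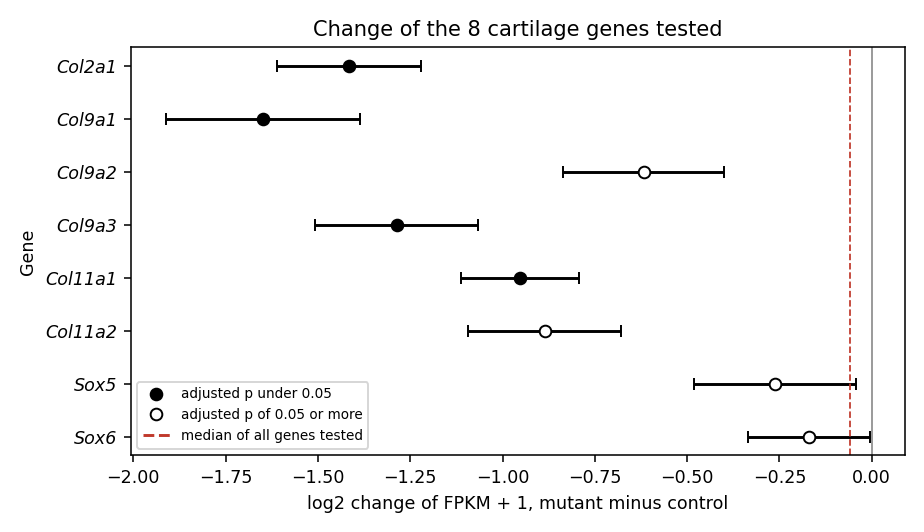
Log2 change of FPKM + 1, mutant minus control, for the 8 cartilage genes tested with limma over 2 mutant and 3 control libraries. Bars are 1 SE, filled points have an adjusted p under 0.05, and the dashed line is the median of all genes tested at -0.06. Col9a1 at -1.65 and Col2a1 at -1.42 lie farthest to the left, and Sox5 and Sox6 lie nearest to the median.

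The matrix genes Acan and Matn1 were below 1 FPKM in every library except control replicate 1. Acan (chromosome 7, 79053483 to 79115099, plus strand), the gene of aggrecan, stood at 0.289 and 0.282 FPKM in mutant libraries, against 1.35, 0.542 and 0.588 FPKM in control libraries. These values rest on 34 and 33 reads in the mutants and on 189, 66 and 80 reads in the controls, and the groups did not overlap. With no filter on low values its log2 change was -0.48 (SE 0.21, adjusted p = 0.379 with limma). The exact permutation test on FPKM, on the absolute difference of means, gave p = 0.3 for Acan. The 10 ways to split these 5 libraries allow no p below 0.1. Matn1 (chromosome 4, 130944385 to 130955475, plus strand), the gene of the cartilage protein matrilin 1, stood at 0.603 and 0.383 FPKM in mutant libraries, against 2.38, 0.490 and 0.274 FPKM in control libraries. Its groups overlapped, and control replicate 1 alone stood above the rest, with 89 reads beside 10 to 19 in each other library.

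Sox5 and Sox6 encode the partner proteins of SOX9 in chondrocytes and are also used in neurons and muscle. Sox5 (chromosome 6, 143828425 to 144781977, minus strand) stood at 1.04 and 0.991 FPKM in mutant libraries, against 2.10, 1.05 and 1.22 FPKM in control libraries. The mutants lay only just below control replicate 2, and control replicate 1 was again the highest. The log2 change of Sox5 was -0.26 (SE 0.22, adjusted p = 0.591 with limma). Exons of the antisense gene Sox5os1 cover 9.25% of its exon bases. Sox6 (chromosome 7, 115470872 to 116038796, minus strand) stood at 1.38 and 1.56 FPKM in mutant libraries, against 1.96, 1.93 and 1.48 FPKM in control libraries. Its groups overlapped, with mutant replicate 2 above control replicate 3 (log2 change -0.17, SE 0.17, adjusted p = 0.646 with limma). Sox9 itself, which the airway also uses in the branching tips of the epithelium, stood at 25.5 and 23.2 FPKM in mutant libraries, against 17.3, 26.4 and 19.1 FPKM in control libraries. Its groups overlapped as well, and its log2 change was 0.23 (SE 0.18, adjusted p = 0.548 with limma).

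Col9a2 and Col2a1 had the highest levels in both groups, and Matn1 and Acan the lowest. In mutants Col9a2 averaged 25.2 FPKM, Col2a1 9.79, Col11a1 8.21, Col9a3 7.73, Col9a1 4.37, Sox6 1.47, Col11a2 1.44, Sox5 1.02, Matn1 0.493 and Acan 0.286 FPKM. In controls the order by mean FPKM was Col9a2 at 37.8, Col2a1 at 28.2, Col9a3 at 19.6, Col11a1 at 17.0, Col9a1 at 16.3, Col11a2 at 3.57, Sox6 at 1.79, Sox5 at 1.46, Matn1 at 1.05 and Acan at 0.828 FPKM. Among the mutants the libraries of Col9a3 overlapped with those of both Col2a1 and Col11a1, and those of Sox6 with those of Col11a2. Among the controls, Col9a3, Col11a1 and Col9a1 overlapped as neighbours, and so did Sox6, Sox5, Matn1 and Acan. Col9a1 in control replicate 1, at 23.0 FPKM, was also above Col2a1 in control replicate 3, at 21.7 FPKM. These levels are per length, and the length implied for Col2a1 was 6001 bases, against 9243 bases of exons in GENCODE M21, so its rank depends on the annotation that the authors used.

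Ratios between genes within a library leave out the amount of cartilage RNA only if both genes are transcribed in cartilage cells alone. Whether that holds for these genes in this bulk tissue was not tested. Col9a1 over Col9a2 was 0.158 and 0.200 in mutants and 0.622, 0.333 and 0.344 in controls. Col9a3 over Col9a2 was 0.311 and 0.298 in mutants and 0.582, 0.544 and 0.438 in controls. Both ratios were lower in each mutant than in any control (exact permutation p = 0.1 for each, the smallest possible), which was true of the ratio to Col9a2 for 2.7% of all other genes tested. Col11a2 over Col2a1 was 0.149 and 0.145 in mutants and 0.129, 0.130 and 0.118 in controls, and Col11a1 over Col2a1 was 0.824 and 0.857 in mutants and 0.576, 0.508 and 0.764 in controls. Both were higher in the mutants with no overlap (exact permutation p = 0.1 and 0.2), which was true of the ratio to Col2a1 for 92.2% of all other genes tested. The ratios of Col9a1, Col9a3, Acan and Matn1 to Col2a1 overlapped between the groups (exact permutation p = 0.3, 0.7, 0.9 and 0.5). A total of 14 ratios was computed, the adjusted p over them was 0.233 or more, and none can pass a threshold of 0.05 in this design.

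**Figure D3:**
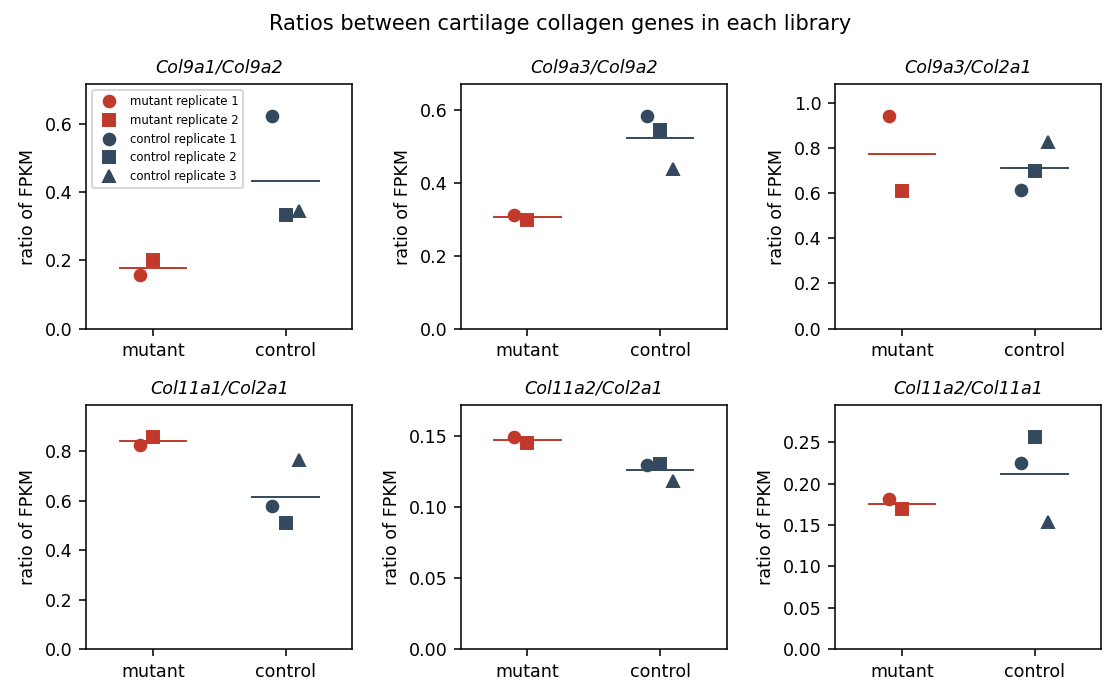
Ratios of FPKM between collagen genes of cartilage, with 1 point per library, mutants in red at the left, controls in blue at the right, and lines at the group means. Each axis starts at 0. Col9a1 and Col9a3 relative to Col9a2 are lower in both mutants than in every control, while Col9a3 over Col2a1 and Col11a2 over Col11a1 overlap.

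Of 13 other genes of the cartilage matrix tested, 1 was lower and 0 were higher, and the median log2 change was -0.25. Epyc, which encodes the small proteoglycan epiphycan, was the one that fell, with 1.86 and 1.77 FPKM in mutants and 3.72, 4.62 and 3.49 FPKM in controls (log2 change -0.81, adjusted p = 0.0433 with limma). Prg4, the gene of lubricin, and Susd5 had log2 changes of -1.38 and -0.80, and Hapln3, a link protein gene, of 0.50 (adjusted p = 0.0925, 0.207 and 0.188). Matn3 and Comp, genes of later cartilage matrix, reached at most 0.479 and 0.294 FPKM in any library. Col10a1, the collagen of hypertrophic chondrocytes, reached at most 0.142 FPKM in any library.

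Regulators of chondrocytes split between falls and a rise. Of 15 tested, 2 were lower and 1 was higher, with a median log2 change of -0.58. Barx1, a homeobox gene of foregut mesenchyme, and Foxc1, a forkhead gene of mesenchyme and cartilage, both fell, with log2 changes of -1.28 and -1.09 (adjusted p = 0.00797 and 0.0355 with limma). Foxc2 was at -0.99 (adjusted p = 0.0678). Pthlh, whose product delays chondrocyte maturation and is also made by lung epithelium, was at 13.3 and 11.7 FPKM in mutants and at 3.17, 2.84 and 1.66 FPKM in controls (log2 change 1.95, adjusted p = 0.00758). Runx2 and Ihh, genes of maturing chondrocytes, did not exceed 0.424 and 0.439 FPKM in any library.

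Signals known to act on airway mesenchyme moved both ways, with 2 of 22 lower, 3 higher and a median log2 change of 0.02. Shh stood at 2.47 and 3.14 FPKM in mutant libraries, against 10.5, 7.50 and 5.88 FPKM in control libraries (log2 change -1.21, SE 0.22, adjusted p = 0.0416 with limma). Since the mutant genotype is written with Shh, its own level cannot be told apart from the engineered allele. Chrd, which encodes the BMP antagonist chordin, fell as well, with 1.94 and 1.06 FPKM in mutants and 3.95, 3.91 and 3.86 FPKM in controls (adjusted p = 0.0394 with limma). Bmp4, Fgf10 and Tbx4, a BMP gene, an FGF gene and a T-box gene of the airway mesenchyme, rose, with log2 changes of 0.94, 1.79 and 1.02 (adjusted p = 0.00795, 0.00641 and 0.0343).

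Genes of other tissues in the pieces also differed between the groups, though without mutant replicate 1 or 2 only 21 or 12 of all genes passed. Of 12 skeletal muscle genes tested, 10 were lower and 0 higher (median log2 change -1.79), and the summed FPKM of the 16 in the table was 79.3 and 179 in mutants and 362 to 797 in controls. Myh3, an embryonic myosin gene, and Myog, Myod1 and Tnnt1 all fell, with log2 changes of -3.49, -2.67, -2.31 and -1.67 (adjusted p = 0.00641, 0.0077, 0.00862 and 0.0077 with limma). Myf5, a defining factor gene of that lineage, was listed at 0.122 and 0 FPKM in mutants and at 0.854 to 0.975 FPKM in controls. Of 9 airway smooth muscle genes, Actg2, a smooth muscle actin gene, was the one that fell, at -1.89 (adjusted p = 0.0107), and the list summed to 247 and 200 FPKM in mutants and to 312 to 466 FPKM in controls. Cnn1, Myh11 and Mylk of that list were at -1.37, -2.02 and 0.45 (adjusted p = 0.0516, 0.0772 and 0.107). Of 8 neuronal and neural crest genes, 2 were lower and 0 higher. Ret, a receptor gene of enteric and airway neurons, averaged 1.25 FPKM in mutants and 3.52 FPKM in controls, and Tubb3, a neuronal tubulin gene, fell with a log2 change of -0.82 (adjusted p = 0.0254 and 0.0485 with limma). Stmn2 and Prph were at -0.79 and -0.68 (adjusted p = 0.0525 and 0.0862), and the neuronal list summed to 56.5 and 43.0 FPKM in mutants and to 71.3 to 97.0 FPKM in controls. The part of these tissues, or of how much trachea each piece held, in the lower level of cartilage genes was not tested.

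In the lists of epithelium and of bone, 0 of 11 and 0 of 4 genes tested passed with limma. The median log2 change of the 11 epithelial genes was -0.59. Of them 8 were below 0, against 61.1% of all genes tested. Both mutants lay below all controls for 6 of the 11, against 24.4% of all genes tested. The 11 epithelial genes summed to 311 and 310 FPKM in mutants and to 754, 385 and 283 FPKM in controls. Control replicate 1 had the highest epithelial sum and was also the highest library for each cartilage gene except Col9a2. Control replicate 3 had the lowest epithelial sum, while its 10 cartilage genes summed to 117 FPKM, against 72.0 and 48.1 FPKM in mutants. Any link between the 2 sums was not tested. Esrp2, Spint2, Epcam and Esrp1 were at changes of -1.13, -0.68, -0.92 and -0.77 (adjusted p = 0.0744, 0.126, 0.181 and 0.204). The bone genes summed to 9.99 and 8.91 FPKM in mutants and to 10.0 to 14.8 FPKM in controls, with Phex, Alpl, Spp1 and Ifitm5 at -0.92, -0.51, 0.66 and 0.24 (adjusted p = 0.081, 0.163, 0.202 and 0.78). Sp7 and Ibsp, genes of bone-forming cells, did not exceed 0.844 and 1.14 FPKM. Of 11 genes of lung and airway mesenchyme, 1 was higher, Tbx4, and 0 were lower, with Foxf1, Dcn and Tcf21 at 0.80, -0.41 and 0.51 (adjusted p = 0.129, 0.181 and 0.226). That list summed to 2168 and 1846 FPKM in mutants and to 2175 to 2809 FPKM in controls.

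**Figure D4:**
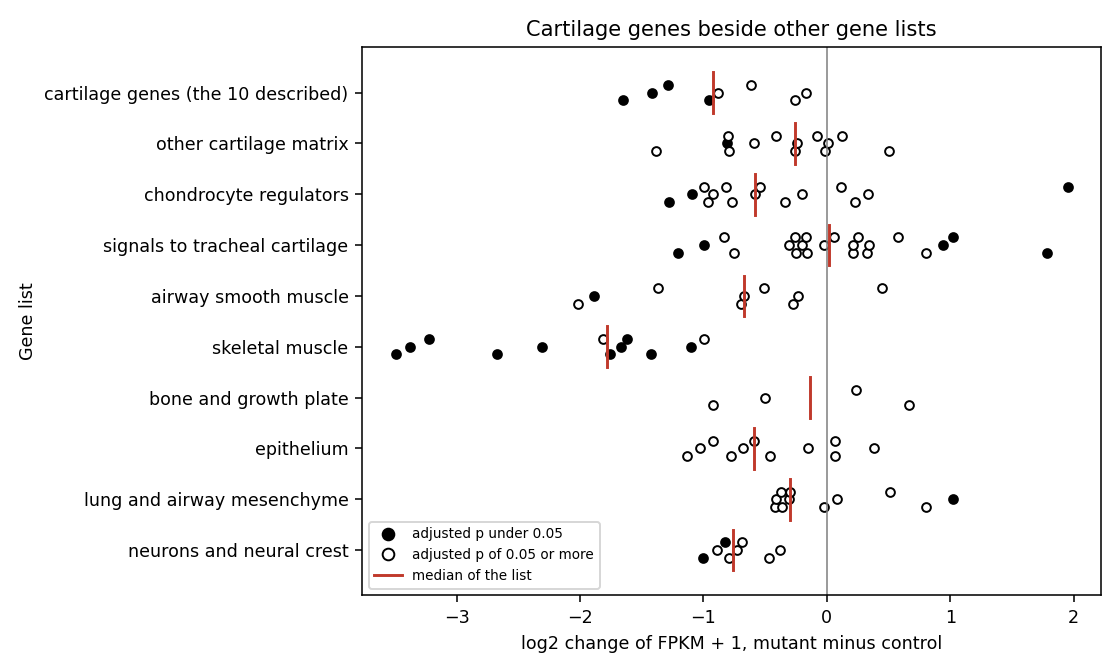
Log2 change of FPKM + 1, mutant minus control, of the tested genes of 10 lists, with 1 point per gene, filled at an adjusted p under 0.05 with limma. Red bars are list medians. The median of the cartilage genes is -0.92, that of skeletal muscle -1.79 and that of the other cartilage matrix genes -0.25. Medians of neurons and neural crest, airway smooth muscle, epithelium and chondrocyte regulators are -0.76, -0.67, -0.59 and -0.58. Those of lung and airway mesenchyme, bone and signals are -0.30, -0.13 and 0.02.

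Outside all lists, the 6 genes nearest to the mean profile of the 8 cartilage genes were found by the root mean square difference of centred log2(FPKM + 1) over the 5 libraries, among 7670 autosomal protein-coding genes with a mean of at least 5 FPKM. They were Hes6, Trpm4, Fzd8, Clec3b, Tyro3 and Angptl1, at differences of 0.0428, 0.0449, 0.0478, 0.0874, 0.093 and 0.0967. Col11a1 was the cartilage gene nearest to the mean profile, at 0.0935, and Col9a1 the farthest, at 0.405. Fzd8, a Wnt receptor gene, was at 5.29 and 4.39 FPKM in mutants and at 11.7, 8.50 and 8.86 FPKM in controls. Clec3b, which encodes the secreted protein tetranectin, was at 10.8 and 8.26 FPKM in mutants and at 24.8, 18.4 and 19.7 FPKM in controls. With 5 libraries such a likeness is a description only.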

How the data were processed

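Airway tissue of 2 mutant and 3 control samples was sequenced, and groups and replicate numbers came from the sample titles. The authors deposited 1 table of FPKM values, the unit being per the name of the deposited table, and the submitters' processing notes name GRCm38 (mm10). The aligner, counter, annotation, filters and strand setting are each not given in the sources used here. Per the labels' protocols, 1.3 ug of total RNA went into a SMARTER mRNA-Seq kit. The treatment protocol in the labels describes adipogenic culture of cells, which does not match embryonic airway, and it was not used. In 19697 of the 19699 entries the steps between libraries gave whole reads, to a relative tolerance of 1e-11. Together with exon lengths of GENCODE M21 (equal to the implied length for 73.9% of 18893 genes matched by symbol) this gave the reads.

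limma (3.58.1, R 4.3.3; lmFit, eBayes with a trend, two-sided) was fitted to log2(FPKM + 1) of all 5 libraries, with no covariate, for genes with at least 1 FPKM in at least 2 libraries. Fold changes on this scale understate the change of low genes. Benjamini-Hochberg adjustment covered all 12838 genes, with a threshold of 0.05. The 10 genes and the lists were chosen with earlier results of these data known, so lists are described by counts and medians without a list test. Named genes are the 10, Prmt5, Shh, Sox9, the 4 tested genes with the smallest p of each list and the 6 genes of nearest profile; Matn3, Comp, Col10a1, Runx2, Ihh, Sp7, Ibsp, Myf5, Xist, Gm23935, Sox5os1 and Tcfl5 were named after their values were seen. Exact permutation tests were two-sided (scipy 1.17.1). On simulated reads of the same 12838 genes at a dispersion of 0.02, the test called 8.96%, 64.5% and 96.1% of genes changed 1.5-fold, 2-fold and 4-fold. Of its calls there, 13.9% fell on unchanged genes. That dispersion was set for all genes and not estimated from these libraries, and no difference in composition between libraries was simulated. These shares therefore need not hold for the cartilage genes in these data. Alternatives were other pseudocounts, filters and scalings, voom on the recovered reads, a replicate block, a Y-linked covariate and leaving out each library. Of the lists, Cnmd (also under its older symbol Lect1), Snorc and Ucma were not analysed here.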

Additional observations from a re-analysis of the deposited data

How the results depend on the processing

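Over 16 alternatives, the log2 changes of the 8 tested cartilage genes stayed below 0 in all 128 values, while the calls did not hold. The alternatives are refits of the same 5 libraries, so these values are not independent. Those of Sox5 and Sox6 came as near to 0 as -0.08 and -0.04. The 4 cartilage genes past the threshold became 0 with no filter and with TPM, and 1 with the Y-linked FPKM as a covariate. Of all genes tested, 303 passed, against 69 with no filter, 97 with TPM, 55 with the Y-linked covariate and 496 with voom on the recovered reads. With no filter the log2 changes of the 8 genes are the same; for each of these settings the cause was not tested. The median log2 change of the 8 cartilage genes was -1.21 with the Y-linked covariate. With TPM the median was -1.33, but over all 10 cartilage genes, since Acan and Matn1 passed the filter there. The median of all genes was -0.58 with TPM because Gm23935 takes 7.69% to 64.8% of the summed FPKM. TPM without Gm23935 gave 4 cartilage genes of 10 tested and a median of all genes of -0.14. Higher and lower genes numbered 148 and 147 after median ratio scaling and 133 and 115 after quantile normalization, against 127 and 176. Leaving out each library gave 0 to 4 cartilage genes, 12 to 308 genes in all and a median of -1.03 to -0.78. With the replicate block, 5 cartilage genes passed, Col11a2 being added. Control replicate 3 has no partner and drops out of that fit. Deviations of same-numbered libraries from their group means correlated at -0.0671 and 0.0203 across genes. With 2 mutants the deviations of each mirror those of the other, so these correlations cannot show whether the numbers pair the samples. Acan and Matn1, at 10 to 189 reads a library, limit what can be detected.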
